A study of Macaca mulatta with 4 samples.

Results

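Chromosome 4 of the rhesus macaque (Macaca mulatta), the counterpart of human chromosome 6, was examined for open chromatin in morulae whose genomes came from 1 parent only. Every hotspot on this chromosome in 4 lists of DNase-seq hotspots was taken, 21151 hotspots of 328084 in all. AG replicate 1 held 3338 of them, AG replicate 2 held 5412, GG replicate 1 held 6896 and GG replicate 2 held 5505. Hotspots that overlapped or touched across the lists were joined into 14426 merged regions, of 222970 in the genome. Members were selected by the authors' own hotspot calls at a false discovery rate of 0.01 and by chromosome, and the chromosome was singled out with its share of each list known. Its AG and GG shares are therefore a description and carry no test.

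The libraries came from androgenetic (AG) morulae, whose nuclear genome is paternal, and gynogenetic (GG) morulae, whose nuclear genome is maternal, with 2 libraries of each kind. All 4 were treated alike with DNase I, at 40 U/ml and 37 °C over 5 min, per the labels. The labels give no donors, sexes or numbers of embryos and do not say that replicates were separate cultures, so the spread between replicates may be technical. Donors and the making of the embryos cannot be told apart from parental origin. The lists give positions and a score but no read counts, so depth is unknown and may itself set the length of a list. Whole lists ran from 64730 hotspots (67.8 Mb) in AG replicate 1 to 93171 (102 Mb) in GG replicate 1.

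DNase I cuts DNA where nucleosomes are displaced, as at active promoters and enhancers, and stretches with an excess of cuts are called hotspots. In the morula the embryo has recently switched on its own genome, and accessible sites mark where transcription factors reach the DNA. The 2 parental genomes are not equivalent: at imprinted genes only the copy from 1 parent is expressed. Human chromosome 6 carries the major histocompatibility complex and the pluripotency gene POU5F1, as well as PLAGL1, FAM50B and IGF2R, which are imprinted in human or mouse.

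The counterpart named in the label could be checked only by gene names. In the RefSeq table of the rhesus assembly T2T-MMU8v2.0, which is not the build of the lists, chromosome 4 held 4 of 5 listed class I genes of the histocompatibility complex and 9 of 12 listed class II and class III genes, among them MAMU-A, MAMU-DRA, TAP1 and TNF. It also held 7 of 9 listed symbols of imprinted genes, with PLAGL1, FAM50B and IGF2R among them, and 18 of 19 listed genes of the early embryo, POU5F1 included. These lists were drawn up almost wholly from genes known on human chromosome 6, so the counts check the counterpart and say nothing of where such genes lie in general. Names of these lists that are not counted here were not matched in that table, apart from ZP4 of the early embryo list, which lay on another chromosome. Positions below are on rheMac8, counted from 1. Without an annotation of that build, no hotspot was assigned to a gene and no sequence is shown.

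Open chromatin on chromosome 4 was concentrated in its first 50 Mb and thinned out beyond. Those 50 Mb are 29.0% of the chromosome but held 49.0% (replicate 1) and 42.3% (replicate 2) of its covered bp in AG, and 40.5% and 43.4% in GG. They also held 419 (51.7%) of the 811 regions present in all 4 libraries, or 8.38 per Mb against 3.20 per Mb beyond. The chromosome counts as 172576258 bp long here, the end of its last hotspot in any list. Merged regions together covered 16.2 Mb, or 9.38% of that length.

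The densest block of 10 Mb was the fourth, from 30000001 to 40000000. Hotspots there covered 55.9 kb per Mb in AG replicate 1, 68.8 in AG replicate 2, 83.3 in GG replicate 1 and 69.8 in GG replicate 2. This block alone held 156 regions present in all 4 libraries, 19.2% of those on the chromosome. The least covered full block by share of the chromosome was the tenth, from 90000001 to 100000000, with 6.72, 18.3, 28.2 and 17.3 kb per Mb in the same order. The fourth block was thus denser than the tenth in every library, and in both blocks AG replicate 1 was the lowest and GG replicate 1 the highest.

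**Figure D1:**
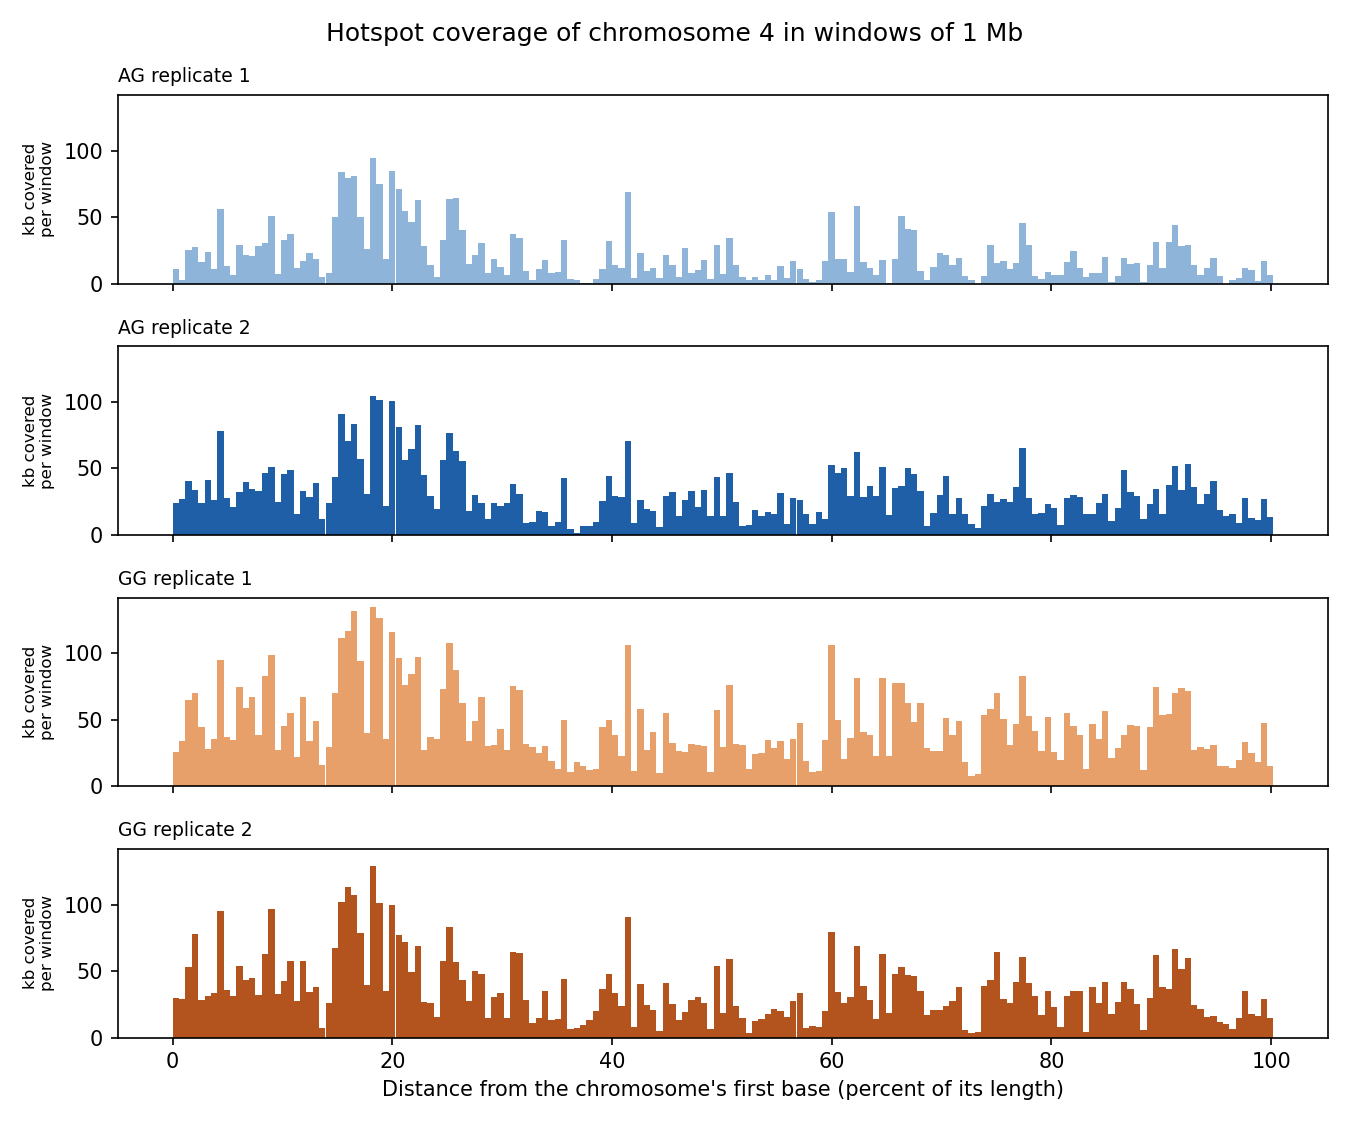
Covered kb (vertical axis) in windows of 1 Mb along chromosome 4 (horizontal axis, percent of its length), with 1 panel per library on a common scale. All 4 libraries peak just before 20 percent of the length, where the densest window held 94.7 to 135 kb.

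Single windows of 1 Mb sharpened this picture. The densest ran from 31000001 to 32000000, with 94.7 kb in AG replicate 1, 104 kb in AG replicate 2, 135 kb in GG replicate 1 and 129 kb in GG replicate 2. It held 32 regions present in all 4 libraries. The windows from 34000001 and from 32000001 followed, with 26 such regions each. By mean level over the libraries, 0.224%, 0.858% and 0.895% of the 2682 windows tested in the genome were as dense as these 3 or denser.

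The least covered windows lay in the middle and far parts of the chromosome. From 126000001 to 127000000 hotspots covered 0 kb in AG replicate 1, 5.48 kb in AG replicate 2, 9.08 kb in GG replicate 1 and 3.87 kb in GG replicate 2. The window before it, from 125000001, and the window from 62000001 were next, with 2.33 to 8.04 kb and 3.35 to 10.8 kb over the libraries. No library had more than 10.8 kb in any of these 3 windows. The longest stretch without a hotspot in any list was 231 kb, from 72472892 to 72703510. Stretches of 218 kb from 99779910 and 205 kb from 126031199 followed, and 55 stretches exceeded 100 kb.

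Among regions present in all 4 libraries, the 5 with the best rank in their weakest list lay outside the densest block. The first of them ran from 98540611 to 98541384, only 774 bp wide. Its deposited scores were 59.7 and 145 in AG (replicates 1 and 2 in turn) and 95.3 and 97.5 in GG. It was the top hotspot of chromosome 4 in AG replicate 1 and in both GG libraries. The next lay at the very start of the chromosome, from base 101 to 1239, with scores of 43.6, 59.7, 51.7 and 40.8. In all 4 lists this hotspot began at base 101, and no hotspot of another chromosome began at that base.

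The other regions of this rank ran from 93117423 to 93121597, from 19992398 to 19993743 and from 25409520 to 25414839. In the last, hotspots covered 1.00 and 1.14 kb in the AG lists and 4.62 and 4.42 kb in the GG lists, so the GG calls were the wider ones at a site open in every library. A site not present in every library had the best rank on the chromosome in any list, a hotspot of AG replicate 2 with a score of 349, from 121672399 to 121675626. The merged region there had scores of 14.0 in AG replicate 1 and 17.3 in GG replicate 1 and was not called in GG replicate 2. That site was singled out after its values were seen. Scores have an unknown scale and are not compared between lists.

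The median hotspot was under 1 kb wide in every library. Median widths on chromosome 4 were 901 bp in AG replicate 1, 894 bp in AG replicate 2, 949 bp in GG replicate 1 and 945 bp in GG replicate 2. The GG libraries were the wider ones and the groups did not overlap (897.5 ± 4.95 bp in AG and 947 ± 2.83 bp in GG, SD, n = 2 libraries each). Over the 19 other autosomes the medians were 905, 890, 901 and 918 bp, and there the groups overlapped. Hotspots of chromosome 4 were thus 48 and 27 bp wider than those of the other autosomes in the GG libraries, and differed by -4 and 4 bp in the AG libraries. The mean of these 4 differences was 18.8 bp with an SD of 23.5 bp, and 9.0 bp without GG replicate 1. Hotspots over 2 kb made up 10.2% and 6.69% in AG and 11.8% and 11.2% in GG. The widest measured 6861, 7422, 9127 and 8573 bp.

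Width went with sharing in every library. Hotspots of chromosome 4 in regions called in that library alone had medians of 683 and 802 bp in AG and 809 and 777 bp in GG. In regions of all 4 libraries the medians were 1231 and 1201.5 bp (AG) and 1858.5 and 1560 bp (GG). A wider hotspot has more chance of overlapping another, and a merged region is at least as wide as its widest hotspot. The widest regions in all 4 libraries ran from 87466071 to 87478998 (12928 bp), from 7234418 to 7247102 (12685 bp) and from 114721616 to 114732291 (10676 bp). The first was filled unevenly, with 3674 and 462 bp called in AG and 10592 and 10784 bp in GG. In the last of them the AG calls were longer, at 8055 and 8708 bp against 6155 and 4227 bp.

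Most merged regions of chromosome 4 were present in 1 library, although 48.7% of its hotspots lay in regions of several libraries (62.5% and 40.4% in AG, 44.9% and 53.2% in GG). Of its merged regions, 10853 (75.2%) were present in 1 library, 2006 (13.9%) in 2, 756 (5.24%) in 3 and 811 (5.62%) in all 4. On the other autosomes the percentages were 74.9, 13.8, 5.41 and 5.93. The chromosome was therefore shared much like the rest of the genome. By covered bp, the regions of all 4 libraries weighed more, at 17.1% of the merged length. Regions called in AG replicate 1 alone were 8.69% of the regions on chromosome 4 and 13.6% elsewhere, and those in GG replicate 1 alone were 26.3% and 20.6%.

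**Figure D2:**
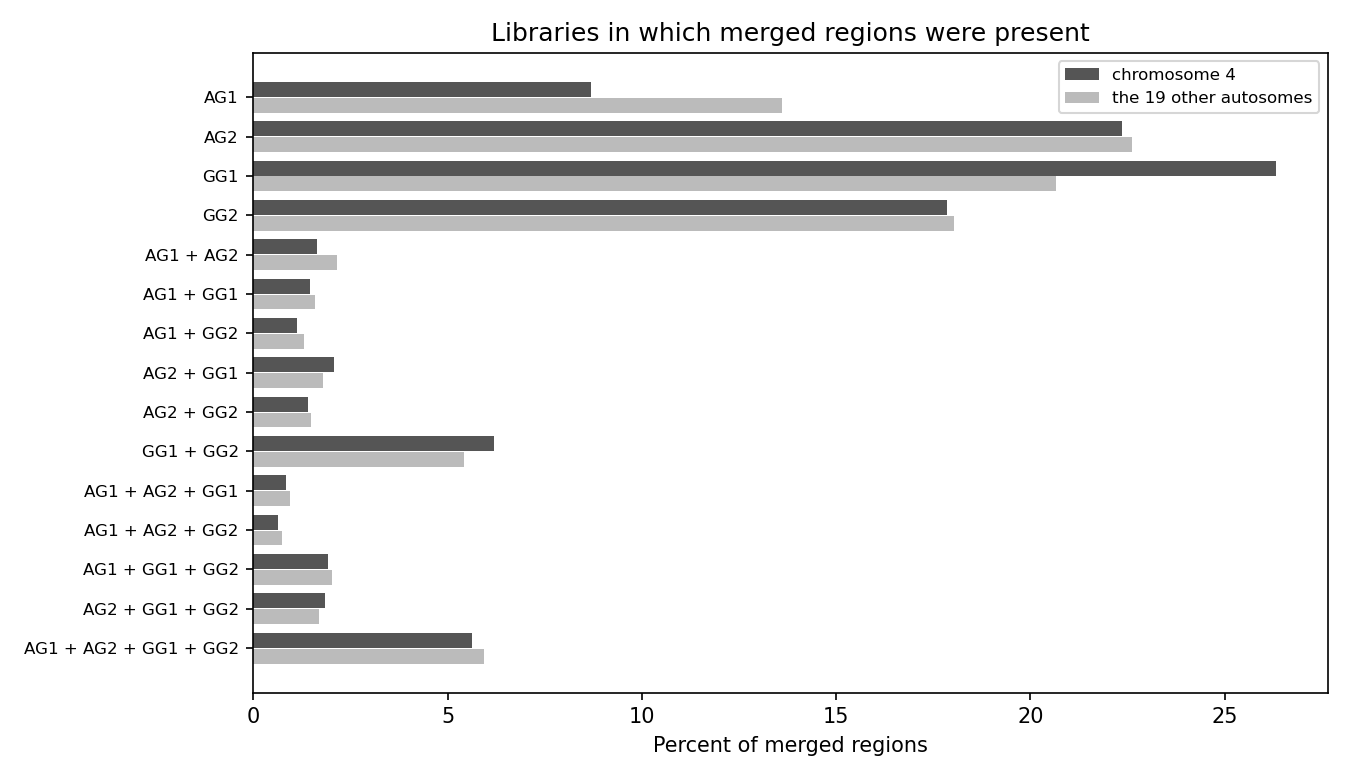
Percent of merged regions (horizontal axis) present in each combination of libraries (vertical axis, AG1 standing for AG replicate 1 and so on), for chromosome 4 and for the 19 other autosomes. The bars of GG1 alone (26.3% and 20.6%) and AG1 alone (8.69% and 13.6%) differ most between chromosome 4 and the rest.

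Agreement between lists on the chromosome was highest for the GG pair by the Jaccard index. The Jaccard index, shared over total covered bp, was 0.235 for GG and 0.168 for AG, and 0.129 to 0.172 for the 4 mixed pairs (1 AG and 1 GG library). The AG pair thus agreed no better than the best mixed pair. On the other autosomes the values were 0.248, 0.168 and 0.144 to 0.173. The mean within groups exceeded the mean between groups by 0.0526 on chromosome 4. This excess fell to 0.0145 without GG replicate 1 and 0.0239 without GG replicate 2, and was 0.102 without AG replicate 1. Of the shorter list's hotspots, 43.4% overlapped the longer list in the GG pair and 38.7% in the AG pair. In the mixed pairs it was 26.3% to 45.6%, highest for AG replicate 1 with GG replicate 1.

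Hotspots of chromosome 4 among the 10% of a list with the highest scores were found again in the other replicate more often than those among the lowest 10%. In AG replicate 1, 275 of 346 top hotspots (79.5%) overlapped one in AG replicate 2, and 35 of 293 of the lowest (11.9%). The percentages were 72.9 and 8.05 in AG replicate 2, 88.1 and 12.4 in GG replicate 1, and 88.4 and 18.6 in GG replicate 2. The 19 other autosomes gave much the same, at 81.6 and 12.8 in AG replicate 1 and 74.8 and 9.32 in AG replicate 2. In GG they gave 88.2 and 14.1 (replicate 1) and 90.1 and 18.3 (replicate 2). The hotspots nearest the threshold had scores of 4.33 and 4.13 in AG and 4.07 and 4.16 in GG, the lowest on the chromosome. Candidates below the threshold were not analysed here.

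Hotspots of the GG lists covered more of chromosome 4 than those of the AG lists, in total and as a share of the library. They covered 3.54 Mb in AG replicate 1, 5.36 Mb in AG replicate 2, 7.85 Mb in GG replicate 1 and 6.20 Mb in GG replicate 2. The mean GG total was 1.58 times the AG total, beside 1.27 times on the 19 other autosomes and 1.28 times over whole lists. Shares of the covered bp were 5.21% and 6.36% in AG and 7.69% and 6.66% in GG. Both GG shares lay above both AG shares, which was so for 30.0% of the 20 autosomes. The means were 5.79 ± 0.807% in AG and 7.17 ± 0.727% in GG (SD, n = 2 libraries each), a difference of -1.39 percentage points (AG minus GG), the lowest of the 20 autosomes. As a ratio of these shares, GG over AG was 1.24 on chromosome 4 and 1.27 on chromosome 5, which ranked first.

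The libraries did not fall into 2 tight groups. AG replicate 2 and GG replicate 2 were 0.303 percentage points apart, less than the 1.14 between the AG libraries and the 1.03 between the GG libraries. Without AG replicate 1 the difference was -0.817, and without GG replicate 1 it was -0.874. In the latter case chromosome 4 was no longer the lowest, as chromosomes 7 (-1.25), 5 (-0.990) and 2 (-0.976) lay below it. The share of chromosome 4 also ranged more widely over the 4 libraries than that of any other autosome, by 2.47 percentage points, so it separated replicates as well as groups. By length it made up 6.45% of the autosomes.

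**Figure D3:**
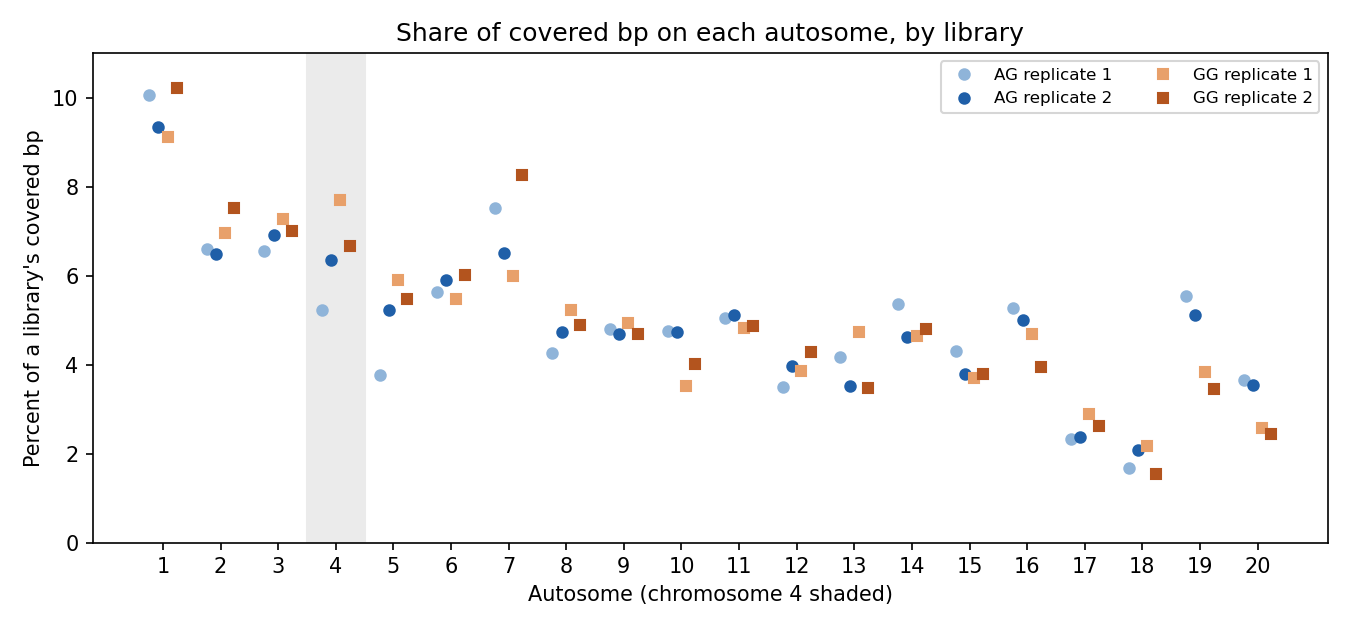
Share of each library's covered bp (vertical axis, percent) on each of the 20 autosomes (horizontal axis), with 1 point per library, circles for AG and squares for GG. On chromosome 4 (shaded) the AG points are at 5.21 and 6.36% and the GG points at 6.66 and 7.69%.

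The higher GG share was spread over most of the chromosome and was missing in its densest block of 10 Mb. Of its 18 blocks of 10 Mb, both GG libraries had larger shares of their covered bp than both AG libraries in 12, beside 33.1% of all 278 autosomal blocks. In none were both AG libraries larger, beside 23.4% of all blocks. In the densest block the groups overlapped: it held 0.825% and 0.816% of the AG libraries and 0.816% and 0.750% of the GG libraries, so that the mean GG share was 0.954 times the AG share. The widest relative difference was in the sixth block, from 50000001 to 60000000, where the GG share was 1.5 times the AG share. Blocks of 1 chromosome and its overall share are not independent.

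Windows of 1 Mb were compared on the log2 scale of covered bp plus 1000 bp, relative to each library's mean over windows, which understates differences of sparse windows. All 173 windows of the chromosome passed the minimum of 2000 bp on average. Their median log2 difference was -0.44 (AG minus GG), against -0.04 over all 2682 windows, so chromosome 4 lay 0.40 lower. Scaling to the median in place of the mean moved the median of all windows by 0.12. That change moves the difference of every window by the same amount, so the 0.40 could not change and was not tested by it. Both GG libraries lay above both AG libraries in 81 windows (46.8%), beside 28.9% of all windows, and both AG above both GG in 9 (5.2%), beside 24.1%. With median scaling these numbers were 61 (35.3%, beside 21.7% of all) and 17 (9.83%, beside 31.1%). With each library centred within each chromosome they were 30 (17.3%, beside 22.5%) and 43 (24.9%, beside 28.3%). The chromosome was singled out on this contrast, so these numbers describe its overall shift.

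By limma, 0 of the 173 windows passed a Benjamini-Hochberg adjusted p of 0.05, as did 0% of all windows. The smallest adjusted p was 0.144. Unadjusted, 22 windows (12.7%) had a p under 0.05, 21 of them higher in GG, beside 18.0% of all windows. This number was 62 without AG replicate 2 (35.8%, beside 22.7% of all), 6 without GG replicate 1 (3.47%, beside 8.76%) and 12 without GG replicate 2 (6.94%, beside 9.4%). limma called 9 windows (5.2%) with an offset of 10000 bp, beside 5.07% of all, and 17 (9.83%) with a variance trend, beside 8.13%. All of these were higher in GG.

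The shift differed between pairs of libraries. The median over the windows of chromosome 4 was -0.78 for AG replicate 1 minus GG replicate 1 and -0.46 for AG replicate 1 minus GG replicate 2. For AG replicate 2 it was -0.21 against GG replicate 1 and -0.07 against GG replicate 2. Between the AG replicates it was -0.46 and between the GG replicates 0.23, where the other windows gave -0.05 and -0.02. The gap between AG replicates on this chromosome was thus as large as the gap between AG replicate 1 and GG replicate 2. Without AG replicate 1 the median AG minus GG difference was -0.15, and without GG replicate 1 it was -0.28.

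**Figure D4:**
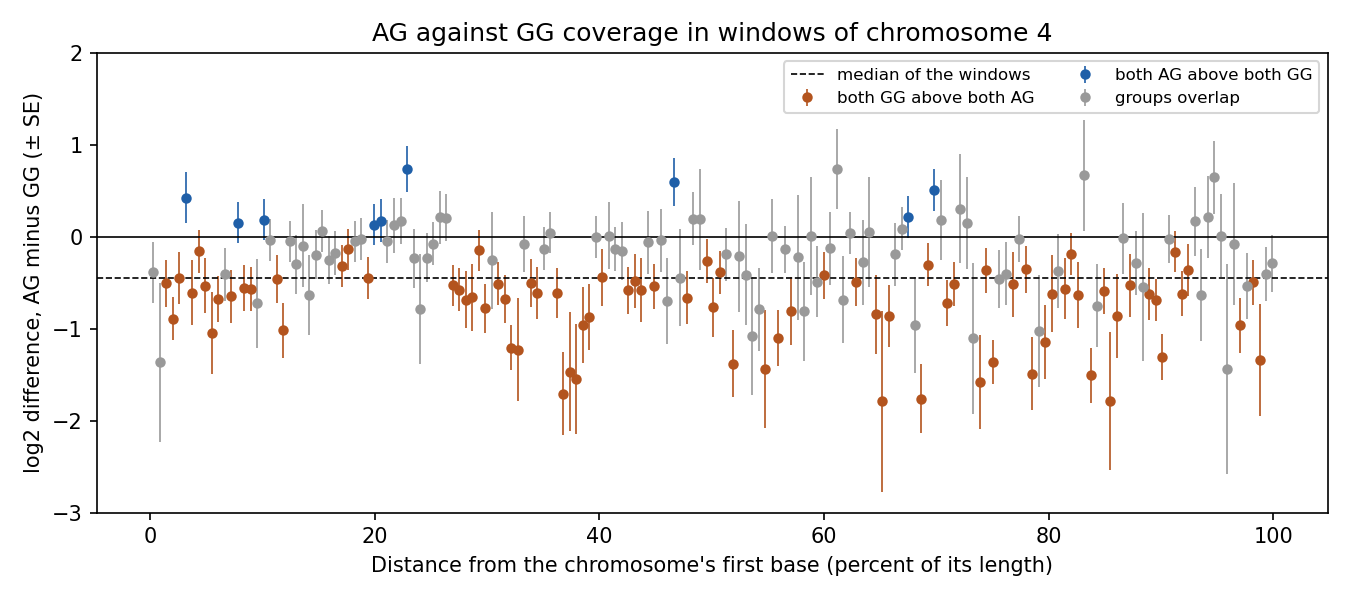
log2 difference in covered bp, AG minus GG (vertical axis, points with ± SE from limma, n = 2 libraries per group), in windows of 1 Mb along chromosome 4 (horizontal axis, percent of its length). Most points lie below 0, around the median of -0.44 (dashed), and the 9 windows with both AG above both GG reach 0.74 at most.

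The window with the smallest p ran from 129000001 to 130000000. AG replicates had 15.7 and 24.6 kb there and GG replicates 70.0 and 64.1 kb, a log2 difference of -1.36 (SE 0.24, limma adjusted p = 0.144). It held 15 GG-only regions, 0 AG-only regions and 6 regions present in all 4 libraries. The groups were far apart here, at 2.57-fold higher in GG after scaling.

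Next was the window from 155000001, with 11.5 and 15.9 kb in AG and, in GG, 53.7 and 37.7 kb (log2 -1.31). The window from 144000001 had 7.62 and 15.4 kb against 46.5 and 38.3 kb (log2 -1.51). The window from 55000001 had 9.73 and 9.23 kb against 31.4 and 28.4 kb (log2 -1.20), and that from 118000001 had 2.62 and 6.62 kb against 28.4 and 16.7 kb (log2 -1.76). In these last 4 windows the lower GG library was above the higher AG library by over 10 kb, and the limma adjusted p was 0.149.

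Windows higher in AG were fewer and differed less. The first, from 39000001 to 40000000 at the edge of the dense block, had 28.1 and 45.3 kb in AG and 27.4 and 26.8 kb in GG (log2 0.74, SE 0.25, limma adjusted p = 0.228). The windows from 80000001 and 120000001 followed (log2 0.60 and 0.51). Those from 105000001 and 163000001 (log2 0.74 and 0.65) rested on AG replicate 2, which had 50.3 and 40.5 kb there against 18.2 and 19.1 kb in AG replicate 1. In those last 2 windows the groups overlapped.

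Over 2-fold differences occurred in 25 windows (14.5%), all higher in GG, beside 8.72% of all windows. In this fit 0 windows were over 2-fold higher in AG, beside 2.65% of all. With lists of equal covered length, 11 were over 2-fold higher in GG and 4 in AG. In both directions together that was 8.67% of the chromosome's windows beside 11.3% of all, where the full lists gave 14.5% beside 11.4%. The 25 came to 10 without AG replicate 1, of which 3 were higher in AG (5.78% beside 11% of all), and to 52 without AG replicate 2 (30.1% beside 16.7%). Chromosome 4 thus lay above or below the share of all windows depending on the libraries and list lengths used. Of the 25, 22 lay beyond 50 Mb, where the median log2 difference was -0.49, against -0.27 in the first 50 Mb and 0.05 in the block from 30000001. Runs of neighbouring windows with both GG above both AG were longest from 46000001 to 52000000 and from 62000001 to 68000000, at 6 windows each. The second run includes one of the least covered windows of the chromosome.

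By median log2 difference, sparse windows leaned further to GG than dense ones, on chromosome 4 and elsewhere. With all windows split by mean level over the 4 libraries into 3 classes of equal size, chromosome 4 had 47 sparse, 76 middle and 50 dense windows. Their median log2 differences were -0.62, -0.48 and -0.19, against -0.22, -0.10 and 0.10 in the corresponding windows of the rest of the genome. In each class chromosome 4 lay below the rest. Both GG lay above both AG in 40.4% of sparse, 51.3% of middle and 46.0% of dense windows on chromosome 4. Elsewhere the percentages were 33.4, 32.3 and 17.3. Both AG lay above both GG in 0 of 47 sparse, 5 of 76 middle and 4 of 50 dense windows on chromosome 4. Elsewhere this was so in 137 of 847, 180 of 818 and 321 of 844. On chromosome 4, windows with both GG above were thus less frequent among sparse than dense windows, but so were those with both AG above. These counts therefore do not settle whether sparse windows there leaned further to GG.

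Regions called in both libraries of 1 group and in neither of the other followed the same direction. On chromosome 4, 895 regions (6.20%) were present in both GG and neither AG library, beside 5.48% of all autosomal regions, and 235 (1.63%) in both AG and neither GG library, beside 2.12%. GG-only regions were thus 3.81 times as many as AG-only regions, against 2.52 times on the 19 other autosomes and 4.34 times on chromosome 5, which also had a higher GG share. Regions found in 1 AG and 1 GG library and in no other numbered 164 to 300 per such pair, a range that includes the AG-only number and lies below the GG-only number. With lists shortened to equal covered length, AG-only regions numbered 277 and GG-only regions 447, a ratio of 1.61 against 1.12 elsewhere. With lists of equal number the ratio was 2.61 against 1.83. In the higher-scoring 50% of each list chromosome 4 was nearer to the other autosomes, at 3.19 against 2.69. Without AG replicate 1 or 2, when 1 library suffices, AG-only regions numbered 3486 and 1527. Without GG replicate 1 or 2, GG-only regions numbered 3592 and 4802, and AG-only regions 366 and 327.

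GG-only regions were scattered more evenly than the regions common to all libraries. The first 50 Mb held 40.0% of them, 44.7% of AG-only regions and 51.7% of those in all 4 libraries, beside 36.5% of all merged regions. Blocks held 28 to 78 GG-only regions, apart from the short last block with 11. GG-only regions were most numerous in the fifth block, with 78, next to the dense block. Their median distance to the nearest region of all 4 libraries was 63.9 kb, against 40.4 kb for AG-only regions and 105 kb for regions of 1 library. Within 10 kb of such a region lay 17.8% of GG-only regions, 26.0% of AG-only regions and 11.6% of regions of 1 library. On the other autosomes the distances were 57.9, 40.7 and 87.1 kb and the percentages 19.7, 21.6 and 12.9, in the same order.

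**Figure D5:**
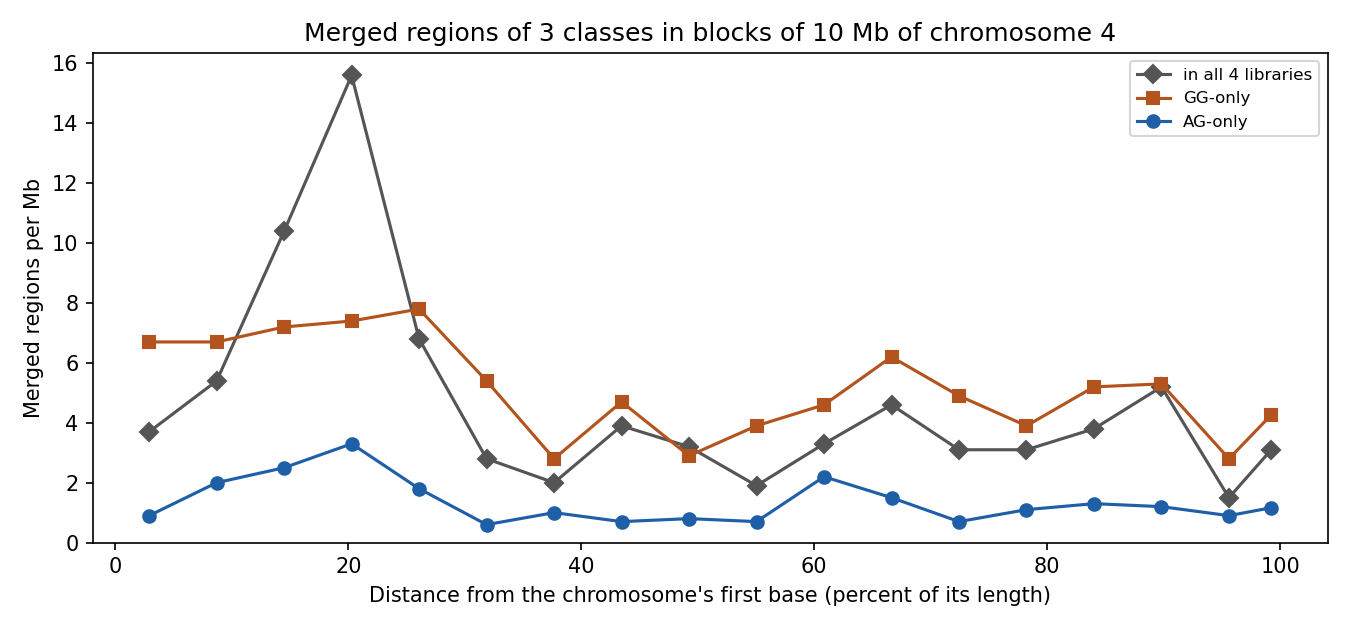
Merged regions per Mb (vertical axis) in blocks of 10 Mb along chromosome 4 (horizontal axis, percent of its length) for regions in all 4 libraries, GG-only and AG-only regions. Regions of all 4 libraries peak at 15.6 per Mb in the fourth block, while GG-only regions do not exceed 7.80 per Mb.

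Group-only regions lay between regions of 1 library and those of all 4 in width. Their median widths were 1439 bp (GG-only) and 1321 bp (AG-only), against 782 bp for regions of 1 library, 891 bp for all merged regions of the chromosome and 3132 bp for regions of all 4 libraries. A region of several libraries is joined from several hotspots. All regions of 2 libraries, group-only ones included, had a median of 1337 bp, and those of the mixed pairs had medians of 1226 to 1318 bp. Among the highest-scoring 10% of their lists were 71 and 47 of the 895 GG-only regions (GG replicates 1 and 2) and 18 and 32 of the 235 AG-only regions (AG replicates 1 and 2). The corresponding percentages were 7.93, 5.25, 7.66 and 13.6, while regions of all 4 libraries reached 29.6 to 43.9.

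The GG-only region with the best rank in its weaker library ran from 7055351 to 7056228, scoring 42.2 in the first GG list and 24.8 in the second. GG replicate 1 had called only 333 of its 878 bp. The next ran from 1455730 to 1456862 (scores 20.7 and 20.1), with 68 bp called in GG replicate 1 and all 1133 bp in GG replicate 2. The region from 42928508 to 42929946 (19.3 and 20.4) was called over 1439 and 1059 bp. Those from 122925438 to 122925895 (18.7 and 18.0) and from 127953383 to 127954946 (15.5 and 19.5) completed the set.

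The AG-only region with the best rank ran from 88702462 to 88703674, scoring 13.8 in the first AG list and 12.3 in the second. AG replicate 2 had called 397 of its 1213 bp. The region from 30209636 to 30211432 (11.1 and 15.4) lay in the dense block and was covered over 1609 and 245 bp. The widest of the set, from 103097791 to 103101123, was called over all 3333 bp in AG replicate 1 and 978 bp in AG replicate 2 (scores 26.8 and 10.5). The remaining regions ran from 18895010 to 18896562 (11.9 and 10.4) and from 114764037 to 114765286 (12.9 and 9.98).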

How the data were processed

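For each library, the deposited file lists the authors' hotspots with a start, an end and a score of unstated scale. The submitters' processing notes name, without roles, rheMac8 as build and deepTools 3.3.1, SAMtools, Bowtie2 and Trim Galore as tools. The hotspot caller is not given in the sources used here. Within a list, scores served to rank and filter.

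Merged regions joined overlapping or touching hotspots of all lists, and 1 bp of overlap made a region present in a library. Windows of 1 Mb over all chromosomes were fitted with limma (lmFit and eBayes, no variance trend, no replicate block). Named windows were the 5 with the smallest p in each direction and the 3 most and least covered. Named regions were the 5 of each class with the best rank in their weakest list, the 3 widest in all libraries and the 3 longest stretches without a hotspot. The members, comparisons and lists were chosen with earlier results of these data known. The smallest two-sided exact permutation p of 2 libraries against 2 is 0.333, so shares, counts and widths are described without tests. Steps were tested on simulated data. Alternatives were other lists, windows, offsets, scalings and left-out libraries. Tools were limma 3.58.1 in R 4.3.3, and scipy 1.17.1, matplotlib 3.10.9, pandas 2.3.3 and numpy 2.4.6 in Python 3.11.15.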

Additional observations from a re-analysis of the deposited data

How the results depend on the processing

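The AG minus GG difference in the share of chromosome 4 kept its direction under every alternative run, from -1.96 percentage points without AG replicate 2 to -0.817 without AG replicate 1. AG-only regions numbered 154 when only the higher-scoring 50% of hotspots per list were kept, and 327 to 3486 with a library left out. GG-only regions numbered 492 in the higher-scoring 50%, 447 at equal covered length and 1171 to 4802 with a library left out. Without a GG library fewer libraries have to share such a region, and without an AG library fewer have to lack it. The excess of the Jaccard index within groups was 0.0735 in the higher-scoring 50% and 0.0145 to 0.102 with a library left out. limma called 9 windows of chromosome 4 with an offset of 10000 bp and 17 with a variance trend, and 0 under the other settings, the replicate block included (23 windows at an unadjusted p under 0.05). Same-numbered replicates share only a number in the labels, and the correlation of their deviations from the group means was -0.0842 over the 2682 windows fitted (-0.182 over those of chromosome 4). Windows over 2-fold apart numbered 15 at equal covered length (4 higher in AG), or 8.67% beside 11.3% of all windows. With an offset of 10000 bp they numbered 3 (0 higher in AG), or 1.73% beside 1.19%. Centred within chromosomes they numbered 14 (5 higher in AG), or 8.09% beside 8.13%. With windows of 200 kb, offset and minimum scaled to that size, they numbered 293 of 856 (48 higher in AG), or 34.2% beside 32.2%. In the higher-scoring 50% they numbered 25 (3 higher in AG), or 14.8% beside 14.2%. They numbered 10 to 52 with a library left out, or 5.78% to 30.1% beside 11.04% to 16.67%. Centring within chromosomes brought the median log2 difference to 0.0043, since it removes a shift of the whole chromosome. Among named windows, the direction reversed only for that from 120000001, at -0.14 by number of hotspot midpoints (the cause was not tested). With 1 library of a group left, limma assumes that it varies like the other group. Depth is unknown, so what it limits could not be given.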
